A study of Arabidopsis thaliana with 36 samples.

Results

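The transcripts described here are the 150 nuclear genes of Arabidopsis thaliana seedlings whose level peaked at midday with the largest swing over the day, out of 6761 nuclear genes tested (mean of at least 4 over all arrays, in log2). A gene's level was the mean log2 value of 3 ribosome fractions of an extract, and the genes were taken by 3 criteria. The mean level had to be highest at Zeitgeber time 6 (ZT6, 6 h after lights on). All 3 ZT6 values had to exceed the 3 values of the gene's lowest time. Of the 1438 genes that met both criteria, the 150 with the largest range, the ZT6 mean minus the mean of the lowest time, were kept. The levels over the day chose these genes, so they are given as a description, with no test.

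The plants were wild type (ecotype Columbia), 10 days old, grown on agar with full strength Murashige and Skoog salts and 1% sucrose in days of 16 h light and 8 h dark, and the aerial part was harvested. Harvests were at lights on (ZT0), ZT6, ZT12 and ZT18, the last being the only one in the dark. RNA of each harvest was split into non-polysomal RNA and RNA on small or on large polysomes, with 3 replicates each, which gives 36 arrays and 12 groups. The 3 fractions with the same time and replicate number are called an extract here, 12 in all. The labels do not say whether such fractions came from the same extract. The labels do not say whether replicates came from separately grown plants, so the p-values here speak for the spread among these samples alone, which may be technical. The design also names seedlings overexpressing the clock gene CCA1, which are not analysed here.

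Plants anticipate dawn and dusk through a circadian clock of transcription factors that repress one another in turn, and many genes of photosynthesis, stress tolerance and metabolism follow the clock, the light and the sugar supply. GIGANTEA (GI) is a clock component of the light period that also acts in the flowering response to day length. An mRNA that carries many ribosomes sediments with large polysomes, and one that carries none stays in the non-polysomal fraction. The log2 difference between large polysomal and non-polysomal values, called ribosome loading here, therefore describes how a transcript is spread over the fractions, while its level describes how much of it there is relative to the other mRNAs of the array.

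All 8 leaf markers read in these samples had means between 11.43 and 14.12 over the 36 arrays, and the root hair genes EXPA7 (2.2) and EXPA18 (2.22) lay at the lowest value of the scale, 2.2. PYK10, a root-rich beta-glucosidase, was read at 9.95. Array medians lay between 4.57 and 4.80. The 62 plastid-encoded genes had mean levels of 7.76, 11.08 and 10.15 in ZT18 replicates 1, 2 and 3 and between 8.04 and 9.98 in the other 9 extracts, so that ZT18 replicates 2 and 3 stood above all others. Without these 2 extracts, 138 of the 150 genes were chosen again by the same rule.

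The range of the 150 transcripts ran from 1.95 to 5.92 with a median of 2.48 (log2), against a median range of 0.63 over all nuclear genes tested. The range passed 2 in 140 genes, 3 in 41 and 4 in 13. At the edge of the choice, AT2G05540 (1.96), AT4G37230 (1.96) and AT5G01750 (1.95) lay just inside, and AT3G56080 (1.94), AT5G66740 (1.94) and BGLU40 (1.93) just outside. The genes above and below that edge thus had nearly equal ranges. Over the 150 genes the median level was 6.20 at ZT0, 8.34 at ZT6, 7.23 at ZT12 and 6.16 at ZT18. In these bulk extracts, fewer cells of a type and less RNA per cell cannot be told apart.

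The troughs of these midday transcripts fell into 3 groups. The lowest time was ZT18 for 74 genes, ZT0 for 61 and ZT12 for 15. The genes lowest at ZT18 had median levels of 6.92 at ZT0, 8.27 at ZT6, 7.02 at ZT12 and 5.46 at ZT18, so they were already at an intermediate level at lights on. The genes lowest at ZT0 had median levels of 5.44 at ZT0, 8.47 at ZT6, 8.07 at ZT12 and 6.55 at ZT18, a course that stayed high to ZT12. The 15 genes lowest at ZT12 had median levels of 6.13 at ZT0, 8.08 at ZT6, 4.66 at ZT12 and 5.96 at ZT18, and thus had fallen while the light was still on.

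**Figure D1:**
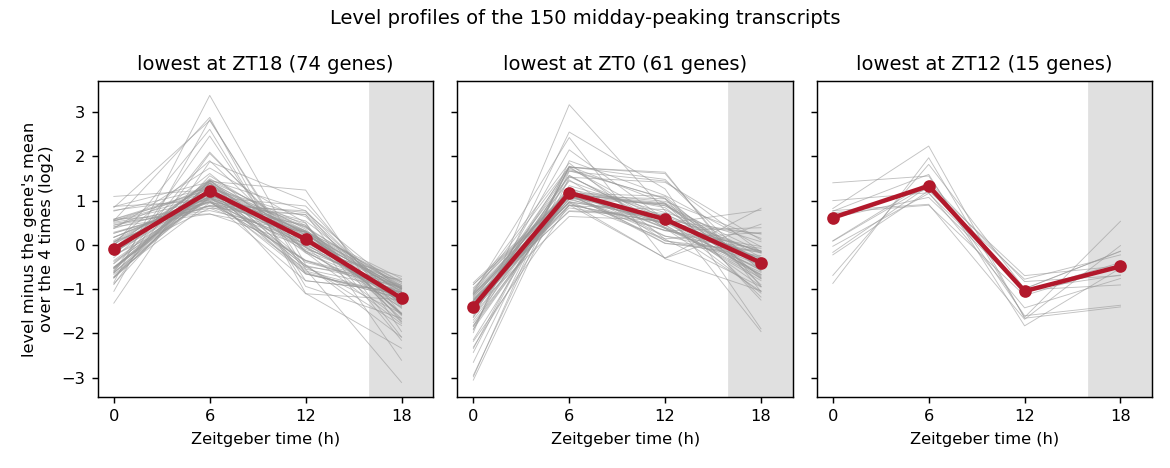
Level (log2, mean of 3 fractions) of the 150 midday transcripts, minus each gene's mean over the 4 times, against Zeitgeber time in hours, 1 panel for each lowest time; thin lines are genes, the thick line is the median over the genes of the panel, and the grey band marks the dark period. The median course peaks at ZT6 in each panel, with 74 genes lowest at ZT18, 61 at ZT0 and 15 at ZT12.

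The second-highest time was ZT12 for 99 genes, ZT0 for 44 and ZT18 for 7. For the median gene, 70.2% of the range was present at that second time, with values from 12.0% to 97.5%. The share was 79.3% in the median gene of the group lowest at ZT0, 63.6% in the group lowest at ZT18 and 63.7% in the group lowest at ZT12. Most of the rise was thus present at a neighbouring time in the median gene. In 102 genes all ZT6 values lay above all values of the second-highest time, and in 48 the replicates of these times overlapped. All ZT6 values lay above the values of all 3 other times in 100 genes. Over all nuclear genes tested these shares were 7.71% and 6.95%, and since high ZT6 values chose the 150, nothing is read from the difference.

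AT4G13800 had the narrowest peak, with 12.0% of its range at its second-highest time. Its levels were 3.02, 3.44 and 2.87 at ZT0, 6.79, 7.31 and 6.88 at ZT6, 3.51, 3.62 and 3.39 at ZT12, and 3.22, 3.05 and 2.81 at ZT18. Only the 3 ZT6 extracts were high in this gene, and the other 9 lay within a log2 unit of one another. Those 9 lay under 4, not far above the lowest value of the scale, 2.2. The gene thus reached the minimum mean of 4 through its ZT6 values alone. How far the scale narrows this peak was not tested. At the other end stood Fes1B (AT3G53800), named after the yeast exchange factor of Hsp70 chaperones, with 97.5%. Its levels were 3.25, 3.07 and 3.36 at ZT0, 8.12, 7.68 and 7.64 at ZT6, 7.94, 7.42 and 7.74 at ZT12, and 6.71, 5.91 and 6.56 at ZT18. The ZT6 and ZT12 values of Fes1B overlapped, and ZT0 stood far below all others.

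THI2.2 (AT5G36910), a thionin, which is a small cysteine-rich antimicrobial peptide, had the largest range of the 150. Its levels were 9.24, 9.04 and 8.88 at ZT0, 10.80, 10.85 and 11.42 at ZT6, 7.95, 7.15 and 7.89 at ZT12, and 4.90, 5.12 and 5.29 at ZT18. The 4 times did not overlap, and the range was 5.92. AT1G73480, which the gene table does not name, followed with a range of 5.47. Its levels were 3.67, 3.73 and 3.56 at ZT0, 7.79, 7.82 and 8.04 at ZT6, 3.87, 4.53 and 3.76 at ZT12, and 2.41, 2.40 and 2.44 at ZT18. The ZT18 values of AT1G73480 lay within 0.5 of the lowest value of the scale, so its range there is limited by the scale. The same held at the lowest time for AT1G13650, AT1G10585, AT2G40435 and GI.

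CYP71B26 (AT3G26290), a cytochrome P450, had the largest range among the transcripts lowest at ZT0. Its levels were 6.65, 6.26 and 5.87 at ZT0, 11.40, 11.34 and 11.51 at ZT6, 9.35, 8.06 and 9.64 at ZT12, and 6.32, 6.06 and 6.48 at ZT18. ZT6 stood above all other extracts, ZT0 and ZT18 overlapped, and ZT12 was the most variable time (SD 0.84, n = 3). AT1G70820 came next in that group with a range of 4.89. Its levels were 4.27, 4.21 and 4.44 at ZT0, 9.44, 9.08 and 9.05 at ZT6, 8.64, 8.23 and 8.35 at ZT12, and 7.45, 7.21 and 7.09 at ZT18. This gene declined through ZT12 and ZT18 with no overlap between the times. AT5G43440, the third in that group, had means of 5.17 at ZT0, 9.78 at ZT6, 9.56 at ZT12 and 7.96 at ZT18. AT1G33970 (range 4.43) and AT4G14270 (4.19) had the same course, with means of 3.93, 8.36, 8.07 and 5.99 and of 5.06, 9.25, 9.11 and 6.55 in the order of the times. AT1G62510 (4.27), lowest at ZT18, had means of 8.13, 10.76, 7.21 and 6.49.

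Among the 15 transcripts lowest at ZT12, AT5G35970 had the largest range, 3.89. Its levels were 9.77, 9.92 and 10.07 at ZT0, 11.76, 11.11 and 11.14 at ZT6, 7.64, 7.11 and 7.57 at ZT12, and 7.96, 7.79 and 7.35 at ZT18. It was high in the 6 extracts of ZT0 and ZT6 and low in the 6 of ZT12 and ZT18, where the values overlapped. AT3G44450 differed in its night value, with 5.89, 6.13 and 5.50 at ZT0, 8.33, 9.07 and 8.64 at ZT6, 5.46, 4.02 and 5.74 at ZT12, and 6.94, 7.48 and 7.32 at ZT18. AT1G69160 had 7.30, 7.35 and 7.11 at ZT0, 8.25, 8.04 and 7.97 at ZT6, 4.86, 4.58 and 4.54 at ZT12, and 5.69, 6.16 and 6.04 at ZT18. In AT3G44450 the ZT18 values lay above those of ZT0 and ZT12, while in AT1G69160 they lay between those of ZT12 and ZT0.

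**Figure D2:**
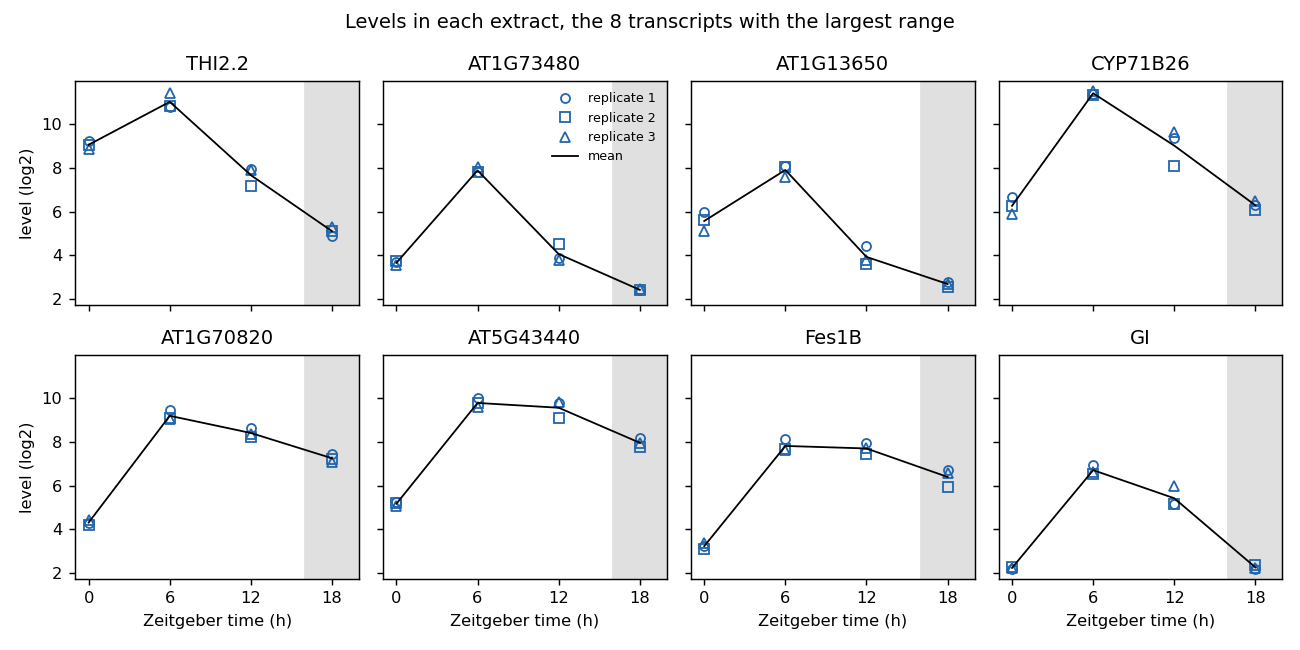
Level (log2, mean of 3 fractions) of the 8 midday transcripts with the largest range against Zeitgeber time in hours; points are the 3 replicate extracts of a time, lines join their means, and the grey band marks the dark period. In THI2.2 the means run from 9.05 at ZT0 to 11.02 at ZT6, 7.66 at ZT12 and 5.10 at ZT18, and GI lies near the lowest value of the scale at ZT0 and ZT18.

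Replicates of a time were close for most genes. The median SD over the 150 genes was 0.18 at ZT0, 0.19 at ZT6, 0.31 at ZT12 and 0.22 at ZT18, and it passed 0.5 in 53 of 600 gene and time means. The widest were AT1G10585 at ZT12 (SD 1.16), BHLH101 at ZT0 (1.09), AT1G09500 at ZT12 (1.06) and AT3G62950 at ZT12 (1.00). BHLH101 (AT5G04150), a basic helix-loop-helix regulator of the iron-deficiency response, had 6.23, 8.27 and 7.93 at ZT0 against 9.13, 8.43 and 8.11 at ZT6, so its ZT0 and ZT6 values overlapped. The ZT18 values of BHLH101 (5.89, 5.92 and 6.02) lay below all of these.

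The clock list held 28 genes, of which 3 had a single-gene probe set and 2 were tested. Both of these were highest at ZT6. GI (AT1G22770) had levels of 2.2, 2.25 and 2.24 at ZT0, 6.95, 6.55 and 6.62 at ZT6, 5.16, 5.13 and 5.96 at ZT12, and 2.2, 2.35 and 2.22 at ZT18. GI was thus read in the 6 extracts of ZT6 and ZT12 and lay at or near the bottom of the scale at lights on and in the dark. The other clock-linked gene tested, AT5G52660, had a range of 1.16 and was not among the 150.

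The chloroplast lists contributed LHCB4.2 and PORB. LHCB4.2 (AT3G08940) encodes a minor antenna protein of photosystem II, known as CP29. Its levels were 13.30, 13.15 and 13.32 at ZT0, 13.95, 13.95 and 13.67 at ZT6, 12.40, 12.84 and 12.34 at ZT12, and 11.86, 11.95 and 11.87 at ZT18. The 4 times did not overlap. Of its paralogs, LHCB4.1 was highest at ZT6 with a range of 0.57, and LHCB4.3 had its highest mean at ZT18 (7.88) and its lowest at ZT6 (5.94). All 6 nuclear photosystem and electron transport subunits tested were highest at ZT6 and met the order criteria, but with ranges of 0.49 to 1.24 none was among the 150. Of 3 Calvin-Benson cycle enzymes tested, none met the criteria, and of 4 photorespiration enzymes 1 did.

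PORB (AT4G27440) is a light-dependent protochlorophyllide oxidoreductase, which makes chlorophyllide. Its levels were 8.40, 8.56 and 8.64 at ZT0, 11.29, 10.66 and 11.08 at ZT6, 10.31, 10.57 and 9.85 at ZT12, and 9.89, 9.72 and 10.03 at ZT18. The ZT6 values lay above all others and those of ZT12 and ZT18 overlapped. Of 8 chlorophyll synthesis genes tested, 5 met the order criteria, among them HEME1 (range 1.61), HEME2 (1.73) and CHLI2 (0.99), which lay outside the 150. PIFI (AT3G15840), a chloroplast protein named for a rise of chlorophyll fluorescence after illumination, had means of 9.49 ± 0.11 at ZT0, 11.76 ± 0.26 at ZT6, 11.50 ± 0.34 at ZT12 and 10.43 ± 0.33 at ZT18 (SD, n = 3).

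LTI30 (AT3G50970), a dehydrin, is a hydrophilic protein that accumulates in the cold and under water deficit. Its levels were 4.55, 5.06 and 4.63 at ZT0, 7.77, 8.09 and 8.00 at ZT6, 6.98, 7.75 and 7.14 at ZT12, and 5.16, 4.88 and 4.96 at ZT18. The ZT6 and ZT12 extracts were high and those of ZT0 and ZT18 low. The other 3 cold-regulated genes tested, COR15A, COR15B and COR47, were highest at ZT12. TIL (AT5G58070), a temperature-induced lipocalin needed for heat tolerance, had means of 9.24 ± 0.06, 10.51 ± 0.13, 9.44 ± 0.19 and 8.41 ± 0.19 at ZT0, ZT6, ZT12 and ZT18 (SD, n = 3). The 1 heat shock protein gene tested met the order criteria with a range of 0.60.

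BCAT4 (AT3G19710) carries out the first step of methionine chain elongation for glucosinolates, the sulfur-rich defence compounds of the cabbage family. Its levels were 9.36, 8.74 and 9.31 at ZT0, 11.38, 11.17 and 11.32 at ZT6, 11.14, 11.20 and 10.93 at ZT12, and 7.85, 7.58 and 8.24 at ZT18. ZT6 and ZT12 overlapped, ZT0 lay below them and ZT18 lay lowest. UGT74B1, the other glucosinolate gene tested, was highest at ZT6 with a range of 1.76. ARD4 (AT5G43850), of the methionine salvage cycle, had means of 9.77 ± 0.08, 11.36 ± 0.14, 9.50 ± 0.17 and 8.94 ± 0.12 in the order of the times (SD, n = 3). GSTU20 (AT1G78370), a tau class glutathione transferase, had 7.95 ± 0.18, 9.67 ± 0.24, 9.47 ± 0.58 and 7.26 ± 0.26.

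PDC2 (AT5G54960), a pyruvate decarboxylase of ethanolic fermentation, kept a high level in the dark. Its levels were 4.47, 4.28 and 4.74 at ZT0, 7.54, 7.58 and 7.62 at ZT6, 7.23, 6.59 and 7.69 at ZT12, and 7.49, 7.44 and 7.46 at ZT18. Only the 3 ZT0 extracts were low. SNZ (AT2G39250), an AP2-type repressor of flowering, was low only in the dark, with 6.23, 6.69 and 6.31 at ZT0, 6.75, 7.18 and 7.04 at ZT6, 6.05, 6.57 and 6.46 at ZT12, and 3.15, 4.08 and 3.91 at ZT18. The ZT6 values of SNZ lay above all others, by little over ZT0. SAG29 (AT5G13170), the sugar exporter SWEET15, had 3.71, 4.46 and 3.83 at ZT0, 4.98, 5.41 and 6.11 at ZT6, 3.03, 3.68 and 3.70 at ZT12, and 3.54, 3.91 and 3.62 at ZT18. It stood out at ZT6 alone.

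The lists of carotenoid synthesis (2 tested, 2 meeting the order criteria), starch synthesis (1 and 1), sulfate assimilation (3 and 1) and expansins with xyloglucan-modifying enzymes (3 and 1) held none of the 150. The lists of starch breakdown (2 tested) and of flavonoid synthesis (3 tested) held no gene that met the criteria. By gene name 27 of the 150 had a symbol, and 123 are known here by their AGI code alone, so most of this set has no role to give. PDC2, TIL, ARD4, GSTU20, SNZ, BHLH101, SAG29, BGLU44 and PIFI stand in no list and were picked for description after their values were seen, as were the genes named for a wide SD, a fraction or a neighbour.

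The midday peak was present in each fraction taken alone. The mean was highest at ZT6 in 138 of the 150 genes in the non-polysomal, 146 in the small polysomal and 143 in the large polysomal fraction, and in all 3 fractions in 130 genes. The median difference between ZT6 and the lowest time was 2.58 in the non-polysomal, 2.52 in the small and 2.51 in the large polysomal fraction. The other genes had their highest mean elsewhere in at least 1 fraction. PDC2 and AT5G45650 were highest at ZT18 in the non-polysomal and small polysomal fractions, and Fes1B, AT1G13930, BGLU44, AT4G15680 and AT4G15690 were highest at ZT12 in the non-polysomal fraction. The fractions' levels also entered the choice, so these counts describe the genes and test nothing.

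The rise from the lowest time to ZT6 was compared between large polysomal and non-polysomal RNA in the 124 genes whose higher mean of these fractions was at least 4 at both times. The other 26 lay too near the bottom of the scale at their lowest time, GI among them. In 107 of the 124 the rises were within 1 log2 unit of each other. The rise was larger in large polysomes by more than 1 in 6 genes, beside 1.67% of all genes that met the order criteria and could be read, among them AT4G15680 (by 1.58), ATSBT5.2 (1.52) and AT1G72500 (1.36). It was smaller by more than 1 in 11 genes, beside 4.36%, among them AT1G13920 (-2.23), AT3G53980 (-1.49), AT4G37230 (-1.38), THI2.2 (-1.37) and AT3G14560 (-1.34). In AT1G13920 the rise from the lowest time was 3.41 in non-polysomal and 1.18 in large polysomal RNA. In ATSBT5.2 it was 1.26 in non-polysomal and 2.78 in large polysomal RNA. These differences of rises are the changes of loading between the same times, which are tested further on. Of the genes named here, AT4G15680, AT3G53980 and THI2.2 did not pass that test against ZT18 (limma).

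**Figure D3:**
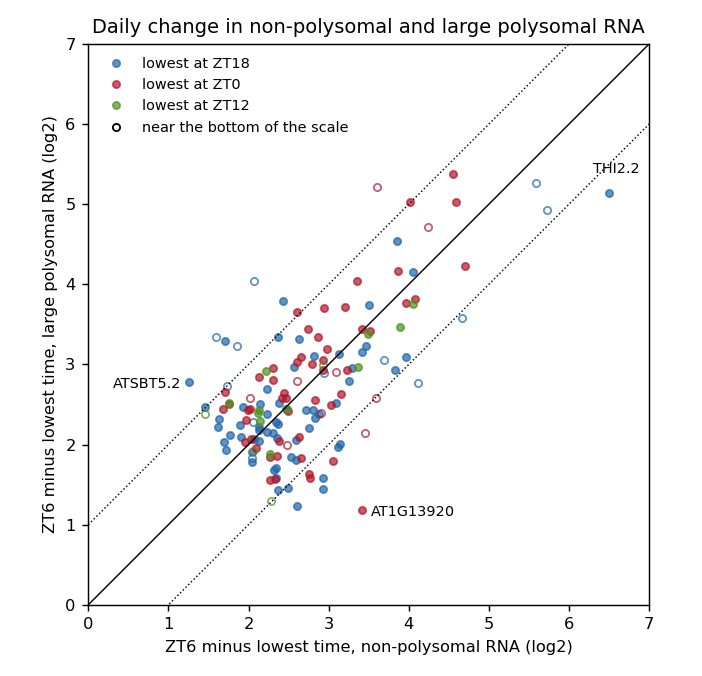
Difference between ZT6 and the lowest time (log2) in the large polysomal fraction against the same in the non-polysomal fraction; points are the 150 midday transcripts, coloured by lowest time and hollow for the 26 too near the bottom of the scale, the solid line marks equal values and the dotted lines a difference of 1. Of the 124 filled points 107 lie between the dotted lines, with AT1G13920 (3.41 in non-polysomal, 1.18 in large polysomal RNA) below them and ATSBT5.2 (1.26 and 2.78) above.

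At ZT6, where these transcripts peak, loading was compared between fractions in a fit over all genes, a difference the choice of genes did not use. Large polysomes exceeded the non-polysomal fraction in 56 of the 150 genes and fell short of it in 35, and 59 did not pass (limma, Benjamini-Hochberg adjusted p under 0.05, all 150 read). Over all tested genes 28.9% were called higher and 30.7% lower. The median difference was 0.17 over the 150 and -0.02 over all genes. The values ran from -3.29 to 3.30, and among the called genes 40 were higher and 20 lower by more than 1, beside 16.6% and 19.2% of all genes. All 3 replicate differences were above 0 in 69 genes and below 0 in 54, beside 40.0% and 41.8% of all genes. The midday transcripts thus spread to both sides, as did the tested genes as a whole. Array medians were close (4.57 to 4.80) and each value is relative to its array. The near even split over all genes therefore does not tell how much mRNA was on polysomes.

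Control RNAs and the plastid-encoded genes moved with the fractions too. At ZT6 the large minus non-polysomal difference was -1.09 ± 0.48 for 24 probe sets of polyadenylated control RNAs, -0.54 ± 0.19 for 18 hybridisation control probe sets and -0.45 ± 0.16 for the 62 plastid-encoded genes (mean ± SD, n = 3). Their part in the result was not tested.

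By trough, the genes lowest at ZT0 had 24 higher, 11 lower and 26 not passed, with a median loading of 0.28. Those lowest at ZT18 had 27 higher, 21 lower and 26 not passed, with a median of -0.06. The 15 lowest at ZT12 had 5 higher, 3 lower and 7 not passed, with a median of 0.03. The difference between these groups was not tested.

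ATSBT5.2 (AT1G20160), a subtilase, a serine protease of the plant subtilisin family, had the highest loading. Its replicate values were 3.41, 3.03 and 3.46, from levels of 9.88 ± 0.33 in large polysomal and 6.58 ± 0.26 in non-polysomal RNA (SD, n = 3). The difference was 3.30 ± 0.27 (SE, limma adjusted p = 2.69e-11). AT3G14067 (2.24, 3.36 and 3.26), AT3G10020 (2.83, 2.32 and 2.31), LTI30 (3.08, 1.91 and 2.36) and AT4G15690 (2.91, 1.88 and 2.27) were the next, with differences of 2.95 ± 0.26, 2.49 ± 0.27, 2.45 ± 0.27 and 2.36 ± 0.38 (SE). All replicates of these 5 genes lay well above 0. TIL (1.89 ± 0.18), PDC2 (1.82 ± 0.27), BGLU44 (limma adjusted p = 3.05e-08) and GI (1.60 ± 0.25, adjusted p = 2.65e-06) were called higher as well.

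AT4G37230 lay at the other end, with replicate values of -3.06, -3.60 and -3.20, from 3.64 ± 0.18 in large polysomal and 6.93 ± 0.45 in non-polysomal RNA (SD, n = 3). The difference was -3.29 ± 0.28 (SE, limma adjusted p = 4.68e-11). AT2G29360 followed with -1.94, -1.94 and -2.09, AT2G29300 with -1.62, -2.58 and -1.53, AT1G20070 with -1.86, -1.84 and -1.81, and AT4G16880 with -1.34, -1.59 and -2.47. Every replicate of these 5 genes lay below 0. AT2G29300 and AT2G29360 are near neighbours on chromosome 2, with 5 protein-coding genes between them in the gene table.

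Loading at ZT6 varied among other named genes. THI2.2 was called lower (-1.03 ± 0.30, limma adjusted p = 0.00428), with replicates of -1.06, -0.91 and -1.13, and SAG29 was called lower by -1.75 ± 0.41 (adjusted p = 0.000532). PORB was called higher (0.83 ± 0.25, limma adjusted p = 0.00583), a call that ended without replicate 1 (adjusted p = 0.0606) or replicate 2 (0.06). LHCB4.2 was called lower (-0.50 ± 0.21, limma adjusted p = 0.0431), and this call ended without any 1 of the replicates (adjusted p = 0.0782 to 0.193) and under cyclic loess scaling, where the difference was -0.05. CYP71B26 (0.53 ± 0.43, limma adjusted p = 0.292), Fes1B (0.30, 0.401) and BHLH101 (-0.13, 0.828) did not pass. BCAT4 (0.47 ± 0.24) did not pass with limma (adjusted p = 0.089) and did with the extract as a block (0.0174).

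**Figure D4:**
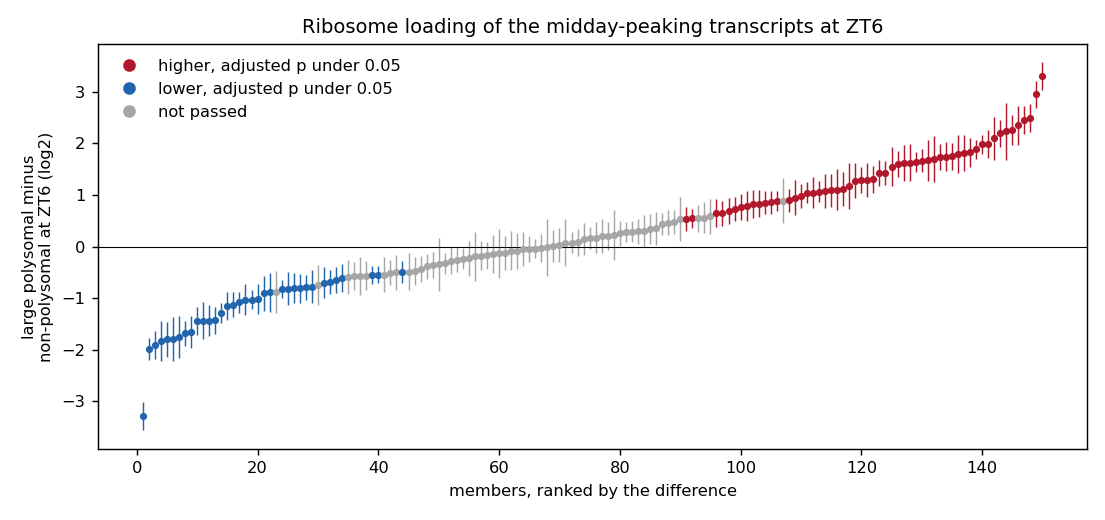
Ribosome loading at ZT6 (large polysomal minus non-polysomal, log2) of the 150 midday transcripts, ranked by the difference; points are limma estimates, bars their standard errors, and colours mark the 56 called higher, the 35 called lower and the 59 that did not pass. ATSBT5.2 lies highest with a mean of 3.30 and AT4G37230 lowest with -3.29.

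Against the non-polysomal fraction, small polysomes held 20 of the 150 genes higher and 18 lower, beside 18.3% higher and 18.3% lower over all tested genes. With the extract as a block the counts were 31 higher and 22 lower, beside 23.7% and 23.2% of all genes. Between the polysome classes, large polysomes held 37 genes higher and 18 lower than small ones, beside 14.2% higher and 19.3% lower over all genes. With the extract as a block 54 were higher and 23 lower, beside 20.2% and 24.7%. The median difference between large and small polysomes was 0.16 over the 150 and -0.02 over all genes.

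Whether loading at ZT6 differed from loading at other times was read only for genes whose higher mean of the large and non-polysomal fractions was at least 4 at both times. Against ZT0, 137 genes were read, 0 were called higher and 3 lower (limma), beside 0.298% higher and 0.85% lower of all genes read, and 22 of the 137 had an unadjusted p under 0.05, beside 14.2% of all genes read. The extract as a block gave 4 higher and 12 lower, beside 1.71% and 3.47%. Against ZT12, 145 were read, 0 were called in either direction (0.0% of all genes in each) and 3 had an unadjusted p under 0.05, beside 3.12%. The block gave 0 there too, with 10 at an unadjusted p under 0.05, beside 7.1%. Against ZT18, 131 were read, with 3 called higher and 3 lower, beside 0.639% and 4.41% of all genes. The block gave 7 higher and 11 lower, beside 4.35% and 9.99%.

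The moderated F test over all times called 7 of 124 genes read, beside 2.84% of all genes, and 18 with the block, beside 11.1%. The split of calls over all genes moved with the scaling of the arrays. Against ZT0 it was 20 higher and 57 lower, 33 and 36 after median centring, and 37 and 31 after cyclic loess. Against ZT18 it was 43 and 297, 76 and 261 after median centring, and 80 and 224 after cyclic loess. For the 150 transcripts the counts against ZT0 became 1 higher and 3 lower under both scalings, and against ZT18 they were 3 and 3 after median centring and 3 and 2 after cyclic loess.

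AT1G13920 had loading values of 0.45, 0.65 and 1.28 at ZT0, -1.34, -1.57 and -1.40 at ZT6, -1.39, -0.87 and -1.97 at ZT12, and 0.50, 0.19 and -0.67 at ZT18. Loading at ZT6 was below ZT0 by 2.23 on the log2 scale, with no overlap (limma, -2.23 ± 0.42, adjusted p = 0.00971), and below ZT18 (-1.44 ± 0.42, adjusted p = 0.0402). The call against ZT18 ended under cyclic loess scaling (limma adjusted p = 0.0523) and with no minimum level (0.0806). Its level rose meanwhile, with 6.74, 6.77 and 6.20 at ZT0 and 8.81, 9.14 and 8.88 at ZT6. The rise was larger in non-polysomal than in large polysomal RNA, as given above. AT1G13930, its direct neighbour, had levels of 7.38, 7.30 and 7.35 at ZT0 and 11.33, 11.53 and 11.46 at ZT6.

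THI2.2 had loading values of 0.87, 0.85 and 1.16 at ZT0, -1.06, -0.91 and -1.13 at ZT6, -1.31, -1.36 and 0.03 at ZT12, and 0.54, 0.45 and 0.01 at ZT18. The ZT6 values lay below all those of ZT0 (limma, -1.99 ± 0.43, adjusted p = 0.0178). Against ZT18 the difference was -1.37 and did not pass (limma adjusted p = 0.0565), but passed with the extract as a block (0.00443). AT4G37230 had -1.14, -1.01 and -2.40 at ZT0, -3.06, -3.60 and -3.20 at ZT6, -2.70, -2.81 and -2.75 at ZT12, and -1.39, -1.93 and -2.39 at ZT18. Its ZT6 loading was lower than at ZT0 (limma, -1.77 ± 0.39, adjusted p = 0.0223) and at ZT18 (-1.38 ± 0.39, adjusted p = 0.035), again with no overlap. The call against ZT18 ended with no minimum level (limma adjusted p = 0.0685). In AT4G37230 the large polysomal mean was under 4 even at ZT6, since only the higher of the large and non-polysomal means had to reach 4. Its loading can fall less where its level is lower, because the large polysomal value then nears the bottom of the scale. The part of this limit in the calls for AT4G37230 was not tested.

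AT3G14560 had loading values of -0.64, -1.28 and -1.17 at ZT6 and 0.40, 0.09 and 0.45 at ZT18. Its loading was lower at ZT6 (limma, -1.34 ± 0.26, adjusted p = 0.00353). The 3 genes with higher loading at ZT6 than at ZT18 were ATSBT5.2, AT4G09500 and AT1G72500. ATSBT5.2 had 2.05, 1.92 and 1.37 at ZT18 and, as given above, a mean of 3.30 at ZT6 (limma, 1.52 ± 0.38, adjusted p = 0.0169). AT4G09500 went from -1.56, -1.38 and -0.55 at ZT18 to 0.52, 0.16 and 0.18 at ZT6 (limma, 1.45 ± 0.29, adjusted p = 0.00353), and AT1G72500 from -0.22, -0.39 and -0.93 to 1.19, 0.45 and 0.92 (1.36 ± 0.33, adjusted p = 0.0125). In each of these 4 genes the ZT6 and ZT18 values did not overlap.

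**Figure D5:**
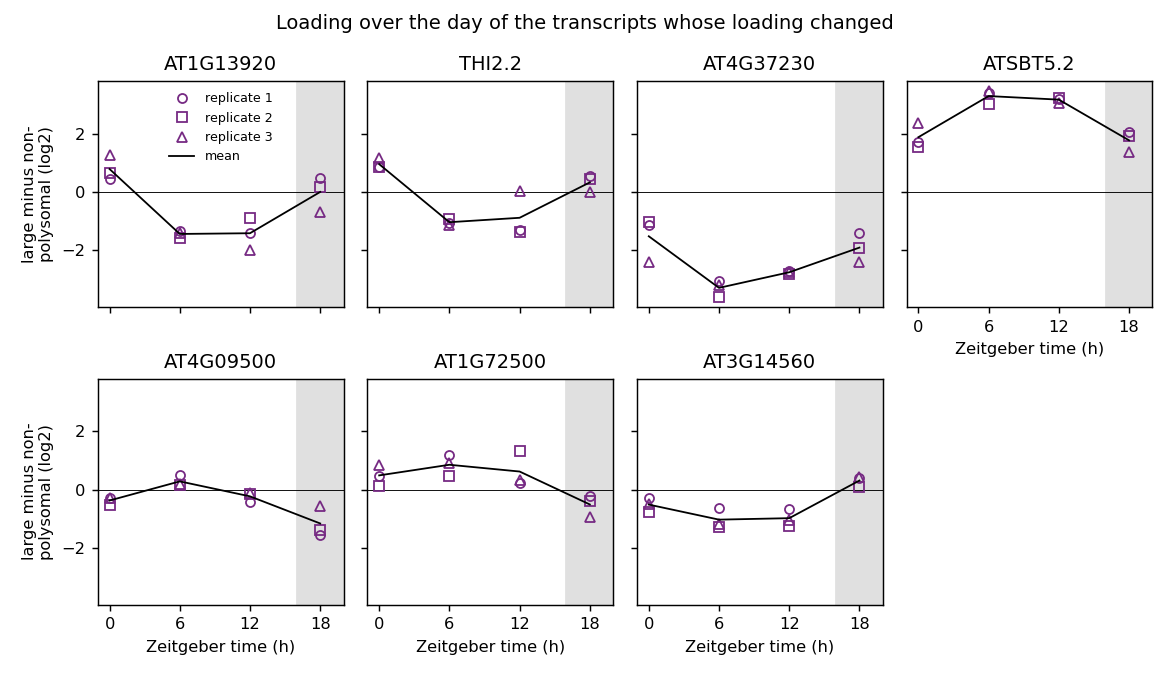
Ribosome loading (large polysomal minus non-polysomal, log2) against Zeitgeber time in hours for the 7 midday transcripts whose loading at ZT6 differed from ZT0 or ZT18; points are the 3 replicate extracts, lines join their means, and the grey band marks the dark period. AT1G13920 falls from a mean of 0.79 at ZT0 to -1.44 at ZT6, and ATSBT5.2 has a mean of 3.30 at ZT6 and 1.78 at ZT18.

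Leaving out any 1 replicate number left 0 calls against ZT0, among the 150 and among all 6708 genes read. The differences then were -2.45, -2.23 and -2.01 in AT1G13920, -2.03, -2.11 and -1.85 in THI2.2 and -1.70, -1.36 and -2.26 in AT4G37230, without replicate 1, 2 and 3. Each kept its direction. Against ZT18, the same settings left 0 to 2 of the 150 higher and 0 to 1 lower, beside 0% to 0.163% and 0% to 1.38% of all genes. Without ZT18 replicates 2 and 3, whose plastid levels were high, none of the 6 calls against ZT18 passed, and 1 of all 6729 genes read did. The differences without these extracts were 1.25 in ATSBT5.2, 1.84 in AT4G09500, 1.07 in AT1G72500, -1.94 in AT1G13920, -1.89 in AT4G37230 and -1.43 in AT3G14560. They kept their direction, with larger sizes in 4 of the 6 genes and smaller ones in ATSBT5.2 and AT1G72500. The control RNAs and the plastid-encoded genes moved between the times as well. The hybridisation controls had a large minus non-polysomal difference of -0.71 ± 0.12 at ZT0 and -0.54 ± 0.19 at ZT6. At ZT12 it was -0.70 ± 0.14 and at ZT18 -1.04 ± 0.07 (mean ± SD, n = 3). The polyadenylated controls had a large minus non-polysomal difference of -2.10 ± 1.14 at ZT0, -1.09 ± 0.48 at ZT6, -1.81 ± 0.58 at ZT12 and -2.27 ± 0.79 at ZT18, and the plastid-encoded genes had -1.30 ± 0.46, -0.45 ± 0.16, -1.33 ± 0.34 and -2.07 ± 0.04 (mean ± SD, n = 3). Their part in the result was not tested.

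For GI no change of loading against ZT0 or ZT18 can be read, because its transcript lay at the bottom of the scale in both fractions at those times. At the times it was present, its loading was 1.54, 1.75 and 1.53 at ZT6 and 2.71, 2.05 and 1.61 at ZT12, values that overlapped. LTI30 had 3.08, 1.91 and 2.36 at ZT6 against 1.16, 0.96 and 1.72 at ZT18, a difference of 1.17 that did not pass with limma (adjusted p = 0.0678) and did with the extract as a block (0.00754). TIL and PDC2 had differences of 0.35 and 0.60 against ZT18, which did not pass with either fit (limma adjusted p = 0.476 and 0.382, and 0.33 and 0.107 with the block).

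The 150 genes lay on all 5 chromosomes, with 41, 22, 31, 22 and 34 on chromosomes 1 to 5. In the order of protein-coding genes, 23 pairs had at most 9 genes between them, and 34 of the 150 genes took part in such a pair. Of these pairs, 6 were direct neighbours. AT1G13920 and AT1G13930, AT1G70810 and AT1G70820, AT1G73470 and AT1G73480, and AT4G15680 and AT4G15690 each shared their lowest time, while AT2G29300 and AT2G29310, and AT5G57340 and AT5G57345 did not. The array's probe table assigns each of these probe sets to 1 gene, and whether its probes also bind a similar neighbouring copy was not examined.

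Gene length was near that of other genes, with a median of 2092.5 bp over the 150 and 2322 bp over the nuclear genes tested. Across the 150 genes, length and loading at ZT6 had a Spearman's rho of -0.07 and a Pearson's r of -0.05 (with log2 length), given as a description across genes, which are not independent replicates and share the same 6 arrays.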

How the data were processed

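The values used were the deposited log2 signals of the probe sets. Per the submitters' processing notes, the authors used GCRMA, affy 1.42.3 and R 3.1. Per the labels' protocols, oligo(dT) primed the cDNA. Nothing was rescaled, so each value is relative to the mRNA of its array, and the number of arrays limits the precision. Of 22810 probe sets (64 of them controls), 13513 had 1 gene in the probe table. The brightest probe set of each of 13356 genes was taken, and 6846 genes with a mean of at least 4 over the 36 arrays were tested. Names came from the gene table of assembly TAIR10.1, where 6823 of the tested genes matched. Coordinates and sequences, and with them the planned search for promoter motifs, are not used here.

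Loading was tested in a limma 3.58.1 fit (R 4.3.3) of all 36 arrays in 12 groups, 2-sided, with Benjamini-Hochberg adjustment over all genes tested and a threshold of 0.05. A gene was read where the higher of its large and non-polysomal means was at least 4 at the times compared. The same code was tested on simulated data with changes of loading at ZT6. Against ZT18 it recovered 36% of changes of 1 log2 unit and 90% of changes of 2. Many changes of 1 log2 unit would thus be missed. The simulated noise was independent between arrays and did not hold the correlation of fractions given next. The fractions called an extract share a time and a replicate number. Their deviations from the group means correlated above 0.1 in 36 of 36 pairs (0.13 to 0.68). The extract was therefore used as a block in an alternative fit. Averaged over the fractions, the hybridisation controls were 10.80 to 11.03 in replicate 1 and 11.55 to 12.17 in replicates 2 and 3. Whether an effect shared by all samples of a replicate number adds to these correlations was not tested. Replicate arrays correlated at 0.934 to 0.988, and 0 pairs were identical. Other alternatives were median centring, cyclic loess, no minimum mean over the 36 arrays, a trended robust variance and leaving out replicates. The minimum for reading loading was kept in all of them.

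Named genes were the 15 with the largest range, all in a gene list, the 3 with the largest range for each lowest time, the 3 on each side of the edge, and up to 5 called genes per direction and comparison with all replicates moving alike; others are said to be picked later. The genes, the lists and the tests were chosen with earlier results of these data known.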

Additional observations from a re-analysis of the deposited data

Results flagged for a closer look

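The difference of loading between 2 times was itself tested, as a contrast in the limma fit, and passed for 9 comparisons of the midday transcripts. Between ZT6 and ZT0, loading was lower at ZT6 in AT1G13920 by -2.23, in THI2.2 by -1.99 and in AT4G37230 by -1.77 (log2). Between ZT6 and ZT18, it was higher at ZT6 in ATSBT5.2 by 1.52, in AT4G09500 by 1.45 and in AT1G72500 by 1.36. It was lower at ZT6 than at ZT18 in AT1G13920 by -1.44, in AT4G37230 by -1.38 and in AT3G14560 by -1.34. These calls did not hold in fits with fewer replicates, though the differences kept their direction. Those against ZT0 ended when any 1 replicate number was left out, where 0 of all 6708 genes read were called. All those against ZT18 ended without replicate 3, where 0 of all 6729 genes read were called.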

How the results depend on the processing

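Among the 41 values of named genes that were followed, the alternatives changed no direction of a called value. With the extract as a replicate block, small against non-polysomal RNA had 31 genes higher, the change against ZT0 had 4 higher and 12 lower, that against ZT18 had 7 higher and 11 lower, and the F test had 18, and no other count moved by over 1.5 times. The shares over all genes in that fit are given above. With no minimum level, 10 genes were lower in large than in small polysomes and 1 was lower at ZT6 than at ZT18. Against ZT0, median centring, cyclic loess and a trended robust variance each called 1 gene higher, beside 0.492%, 0.552% and 0.343% of all genes. Leaving out replicate 1, 2 or 3, large against non-polysomal RNA had 42 to 52 higher and 24 to 29 lower. Over all genes the shares were 22.5% to 25.2% and 25.4% to 27.9%. Small against non-polysomal had 10 to 18 higher and 8 to 13 lower, beside 10.5% to 12.9% and 10.3% to 13.9%. Large against small had 23 to 31 higher and 6 to 14 lower, beside 6.1% to 10.4% and 10.8% to 14.6%. In the same settings the change against ZT0 had 0 to 0 lower and the F test 0 to 0, beside 0% of all genes. The change against ZT18 had 0 to 2 higher and 0 to 1 lower, beside 0% to 0.163% and 0% to 1.38%. Without ZT18 replicates 2 and 3, which leaves 1 extract assumed to vary like the others, the change against ZT18 had 0 higher and 0 lower, and the F test 1. Of 41 values of named genes, the block moved 3 past the threshold and ended none, cyclic loess ended 2 calls, no minimum mean 3, and leaving out a replicate 8 to 10.

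The choice of genes kept 149 of 150 with median centring, 145 with cyclic loess, 145 with levels from linear values, 120, 133 and 124 with large, small or non-polysomal RNA alone, 124 with a minimum mean of 5, 143 with none, 150 with the mean of all probe sets, and 141, 133 and 133 without replicate 1, 2 or 3. The search for promoter motifs was not run. Signal at the bottom of the scale limits the range in GI and the 4 other genes named above with it. Loading could not be read at the lowest time in 26 of the 150 genes, GI among them. The scale also limits loading in AT4G37230, whose large polysomal mean was under 4 at ZT6.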
